A study of Homo sapiens with 12 samples.

Results

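The wild-type map of N4-acetylcytidine (ac4C) in messenger RNA of HK-2 cells was described from the site lists of the 3 wild-type (WT) replicates, which rest on 6 of the 12 samples of the series. ac4C is a cytidine that carries an acetyl group. HK-2 is an established human cell line derived from the epithelium of renal tubules. In ac4C-RIP-seq, RNA is broken into fragments of about 200 nucleotides, an antibody against ac4C pulls down the fragments that carry it (IP), and these are sequenced beside the starting RNA (input). Each WT replicate is 1 IP library and 1 input library, and each pair gave 1 list of sites where the IP exceeded the input. The genotype label reads wild-type control, and no treatment or vector is named for these cells. The labels do not say whether the replicates came from separate cultures, so a standard deviation (SD) over the 3 lists covers the spread between these libraries, which may be technical. The members are the 17541, 17107 and 15289 sites of WT replicates 1, 2 and 3, all of the sites in those lists.

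ac4C is written by NAT10, an acetyltransferase whose established targets are the small ribosomal RNA and, with the adaptor THUMPD1, a group of transfer RNAs. The mark has also been mapped in messenger RNA, where it has been linked to the stability and the translation of the transcript. Antibody maps of this kind place the mark within a site and do not resolve the modified base.

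A list gives, for each site, the position, a score, a length, the gene, the fold enrichment of IP over input, a false discovery rate and its place in the transcript (5' UTR, start codon, coding sequence, stop codon or 3' UTR). It gives no read counts, so the sequencing depth of a site is unknown and its values carry no interval. It gives no RNA level either: a gene without a site may lack the mark or may have too little RNA to be called, and these cannot be told apart. The authors' false discovery rate was high, with a lowest value of 29.2% to 42.58% in a list and a median of 63.0% ± 1.86 (SD, n = 3 lists). Positions are printed as the lists give them. Of the sites, 12.9% to 13.1% lay within the GRCh38 span of their gene although 99.8% to 99.9% lay on its chromosome. The positions therefore do not follow GRCh38, although the submitters' processing notes name hg38, which is the same build. Which build the positions do follow was not given in the sources used here.

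The lists held 16646 ± 1195 sites in 7053 ± 275 genes (SD, n = 3 lists). WT replicate 3 had the fewest of both, with 15289 sites in 6737 genes, against 17541 in 7235 for replicate 1 and 17107 in 7188 for replicate 2. Sites that overlapped by at least 1 base were merged into 20449 regions. Of these, 12668 regions (61.9%) held a site in all 3 lists, 4001 (19.6%) in 2 lists and 3780 (18.5%) in 1 list. The Jaccard index, the regions found in both lists of a pair divided by those found in either, was 0.757 for replicates 1 and 2, 0.714 for 1 and 3, and 0.718 for 2 and 3. Replicates 1 and 2 were thus the closest pair, and the shortest list was the one farthest from both others. Of the sites of replicate 3, 83.2% lay in regions of all 3 lists, against 72.5% for replicate 1 and 74.3% for replicate 2. The numbers of such sites were nearly equal, at 12723, 12717 and 12711, so these percentages follow from the lengths of the lists.

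Genes were shared more often than places within genes. Sites were listed in 7798 genes, of which 6277 had a site in all 3 lists (80.5%), 808 in 2 lists and 713 in 1 list. A region shared by all 3 lists was held by 6131 genes (78.6%), and 160 genes with sites in every list had none at a common place. Of the 713 genes found in 1 list, 628 had a single site there. Among the 20056 protein-coding genes of RefSeq, 6168 (30.8%) had a site in all 3 lists. By chromosome this share ran from 24.2% on X to 40.1% on 22. The gene-level Jaccard index averaged 0.866 over the 3 pairs, against 0.729 ± 0.0236 for regions (SD, n = 3 pairs).

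Whether a gene was found in all 3 lists went with its number of regions, whereas whether a region was found in all 3 lists did not. Genes with 1 region (2993 genes) were in all 3 lists in 61.2% of cases, those with 2 regions (1925 genes) in 84.0%, those with 3 (1118 genes) in 96.1%, those with 4 (682 genes) in 99.1% and those with 5 or more (1080 genes) in 99.7%. Over the same 5 classes the share of regions found in all 3 lists stayed between 61.7% and 62.4%. A gene's presence in all lists therefore has to be read beside its number of regions, and the share of its regions in all lists is given with most annotation terms below.

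**Figure D1:**
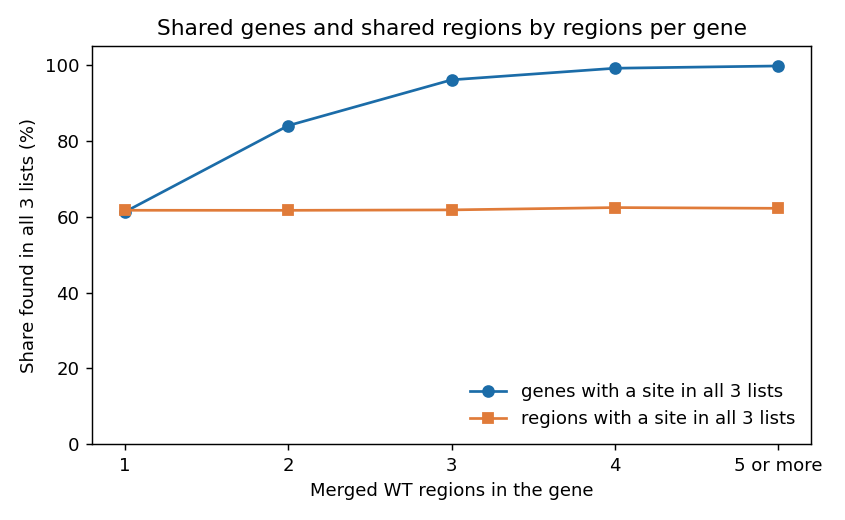
Share of genes (circles) and of regions (squares) found in all 3 WT lists, in percent, by the number of merged regions in the gene. The gene share climbs from 61.2% with 1 region to 99.7% with 5 or more, and the region share stays near 62%.

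Sites found in every list had higher fold enrichment than sites found in 1. The median fold of sites in regions of all 3 lists was 9.32, 9.20 and 9.26 in replicates 1, 2 and 3, that of sites in regions of 2 lists was 4.92, 5.03 and 5.06, and that of sites in 1 list was 4.06, 4.17 and 4.41. This order was the same in each list. Sites in regions of all 3 lists were also longer, with medians of 176, 177 and 174 bases against 130, 132 and 155 bases for sites in 1 list. A longer site meets an overlap of 1 base more easily, and how far this matters was not tested. A fold under 4 was held by 10.7%, 11.2% and 11.7% of the sites in regions of all 3 lists and by 48.4%, 47.3% and 41.4% of those in 1 list. The median false discovery rate was still 56.5%, 58.0% and 62.4% for sites in regions of all 3 lists. For sites in 1 list it was 93.0%, 93.2% and 87.5%. Across the 12668 shared regions the fold of one list followed that of another, with a Spearman correlation of 0.914 to 0.921 for the 3 pairs. The points are regions within libraries of one cell line and are not independent replicates. All fold values here are the authors' ratios for single sites and serve to describe and rank sites.

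The ends of sites often coincided to the base between lists. Between 10068 and 11089 sites of a pair of lists had the same start and the same end, and 16 to 25 of these had the same fold. Folds are ratios that seldom coincide exactly, so this last count does not measure how closely folds agreed. In 8358 of the 12668 shared regions (66.0%) the site had both ends in common in all 3 lists, with a median length of 140 bases. Among shared regions with 1 site a list and 1 transcript part, both ends coincided in 77.5% of 6951 coding regions, 64.0% of 749 in the 5' UTR, 59.0% of 1728 at the start codon, 51.3% of 1718 at the stop codon and 47.9% of 1234 in the 3' UTR. Coding sites thus had the highest share of common ends and 3' UTR sites the lowest. How the authors set site ends was not given in the sources used here.

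The number of sites per gene fell off steeply. The mean over genes with a site was 2.36 ± 0.0798 sites (SD, n = 3 lists), with 42.6% ± 1.65 of genes at 1 site and 10.4% ± 1.04 at 5 or more. Taking for each of the 6277 genes in all lists the smallest of its 3 numbers, 2967 genes had 1 site, 1601 had 2, 1194 had 3 or 4, 469 had 5 to 9, 46 had 10 or more and 6 of those had 20 or more. The number was the same in every list for 3397 of the 6277 genes (54.1%).

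**Figure D2:**
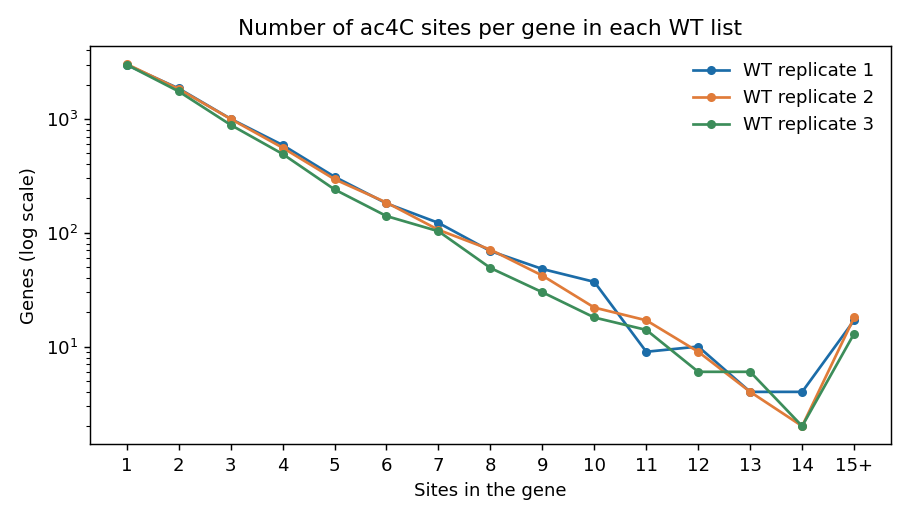
Number of genes (log scale) by number of sites in the gene, 1 line for each WT replicate. The 3 lines run together from 2983, 3031 and 2994 genes with 1 site down to 17, 18 and 13 genes with 15 or more.

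The genes with the most sites encode large proteins of the ubiquitin system, the cytoskeleton and chromatin. UBR4, a ubiquitin ligase of the N-degron pathway, held 28, 26 and 26 sites in replicates 1, 2 and 3. DYSF, dysferlin of membrane repair, held 23, 21 and 20. HUWE1, a ubiquitin ligase, held 22, 21 and 20 sites. In these genes replicate 1 had the most sites. MYH9, a non-muscle myosin heavy chain, held 20, 20 and 21. INTS1, a subunit of the Integrator complex, varied most between lists, with 23, 18 and 19. HSPG2 (the basement membrane proteoglycan perlecan) held 17, 17 and 19 sites, ITPR3 (an inositol trisphosphate receptor) 18, 18 and 16, and SMARCA4 (the ATPase of a chromatin remodelling complex) 17, 15 and 15.

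In these genes the shared regions were mostly coding. UBR4 had 32 regions, of which 20 were found in all lists, 19 of them in the coding sequence and 1 in the 3' UTR. MYH9 had 21 regions with 19 in all lists, of which 16 were coding, 2 lay at the start codon and 1 in the 5' UTR. INTS1 stood lower, with 13 of 26 regions in all lists. The strength of the best shared site differed widely among them. It was a fold of 259, 339 and 371 for UBR4, in the coding sequence on chromosome 1 between 19528212 and 19528270, and 122, 111 and 147 for MYH9, on chromosome 22 between 36681167 and 36681375. For HUWE1 it was 8.32, 11.9 and 14.6, on chromosome X between 53565796 and 53566041. A large number of sites therefore came with high folds in some of these genes and with folds near the median of shared sites in HUWE1.

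In INTS1 and COL6A2 the site of highest fold lay at different places in different lists. In INTS1 it was in the coding sequence on chromosome 7 between 1518002 and 1518142 in replicates 1 and 2 (folds 1064 and 606) and between 1518362 and 1518507 in replicate 3 (fold 1016). In COL6A2, a chain of collagen VI, it was 63 bases long in every list, on chromosome 21 between 47539702 and 47539764 in replicates 1 and 2 (folds 140 and 94.1) and between 47540429 and 47540491 in replicate 3 (fold 124). These sites counted as regions of 2 lists and of 1 list. Of the 4001 regions of 2 lists, 313 (7.82%) had in the missing list a region of that list alone, in the same gene and within 5000 bases. In a list that did hold the region, such a neighbour was present in 5.85% of cases. The share was 13.3% for regions missing from replicate 1, 8.52% for those missing from replicate 2 and 5.46% for those missing from replicate 3. For regions that the list did hold, it was 6.55% in replicate 1 with either partner list. It was 5.78% and 5.95% in replicate 2, and 4.47% and 4.85% in replicate 3. Replicates 1, 2 and 3 had 1647, 1356 and 777 sites in regions of 1 list, so the pooled shares mix lists of unlike size.

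Site length and fold enrichment were spread over a wide range. The median site was 164 ± 3.21 bases long (SD, n = 3 lists), the lowest 5% of sites ended at 29 to 30 bases and the highest 5% began at 641 to 649. The shortest site was 1 base and the longest 7249 bases in every list. Sites under 50 bases made up 10.7% ± 0.274 of a list, and 85.3% ± 0.273 of these were coding. The longest shared site covered the stop codon of PLEC, the cytoskeletal linker plectin, with 7249 bases and folds of 141, 188 and 190. Next came NDST1, an enzyme of heparan sulphate synthesis, with a stop codon site of 4885 bases on chromosome 5 between 149932775 and 149937659 and folds of 4.52 to 4.64. The longest sites thus included a strong and a weak one.

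The median fold enrichment was 7.86 ± 0.405 (SD, n = 3 lists), and 5% of sites exceeded 49.0 to 63.0. A fold of at least 100 was held by 3.38% ± 0.404 of sites (531 to 584 a list). In 461 shared regions of 372 genes the fold was at least 100 in every list, and in 56 regions of 49 genes it was at least 1000. Of the 56, 27 were coding, 11 lay at the start codon, 8 in the 5' UTR, 7 at the stop codon and 3 in the 3' UTR. Among all shared regions with the same part in every list, 56.1% were coding and 13.9% lay at the start codon. The 5' UTR held 6.04% of them, the stop codon 13.9% and the 3' UTR 10.02%. The coding share of the 56 was thus lower than that of all shared regions. The 5' UTR and start codon shares were higher, on small counts and without a test.

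Some very short sites had high folds. In 221 shared regions every site was under 20 bases, and 5 of these (2.26%) reached a fold of at least 100 in every list, as against 461 of all shared regions (3.64%). In MBTPS2, a membrane protease that releases transcription factors, a coding site of 7, 6 and 5 bases had folds of 3543, 3408 and 3696 in replicates 1, 2 and 3. DNAH8, a dynein heavy chain, had a coding site of 10 bases in each list with folds of 722, 973 and 937. Such sites are far shorter than the fragments that were sequenced, so genes were ranked by fold over sites of at least 50 bases. This cut still keeps sites shorter than the fragments, among them those of MINK1 (66 bases in every list) and RIN3 (69 bases in every list).

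Among sites of at least 50 bases, MINK1, a Ste20-family kinase, held the site with the highest fold. It was a coding site of 66 bases on chromosome 17 between 4781612 and 4781677, with folds of 13419, 11665 and 20236 in replicates 1, 2 and 3. SOD3, the extracellular superoxide dismutase, held 1 site, over the stop codon on chromosome 4 between 24801733 and 24802194, with folds of 11499, 7656 and 10498. TTI2, a cofactor in the assembly of phosphatidylinositol 3-kinase-related kinases, held 1 site over its start codon with folds of 8228, 4883 and 7218. In each of these 3 genes the lowest fold was that of replicate 2.

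The other 7 of the 10 strongest genes had folds between 2303 and 5028. TSC22D4, a transcriptional regulator of the TSC22 family, had a start codon site on chromosome 7 between 100074959 and 100075573 with folds of 3936, 3763 and 4488. CREB5, a transcription factor of the CREB family, had a single coding site of 324 bases, on chromosome 7 between 28843816 and 28844139, with folds of 4352, 2987 and 4031. HIVEP2, a zinc finger transcription factor, had a stop codon site with folds of 3673, 2956 and 5028. RILPL1 and RIN3, which act with Rab GTPases, reached 2931, 3877 and 3026 in the coding sequence and 4328, 2832 and 4033 at the start codon. CPM, a membrane carboxypeptidase, had a single 3' UTR site on chromosome 12 between 69248955 and 69249222 with folds of 3174, 2385 and 2884, and KMT2B, a histone H3 lysine methyltransferase, a 3' UTR site with 2303, 2811 and 3112. Of these 10 genes, SOD3, TTI2, CREB5 and CPM held 1 site in every list, as did 1868 of the 6277 genes in all lists (29.8%).

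The coding sequence held most of the sites, and the 5 parts differed in length and fold. Coding sites made up 56.6% ± 0.569 of a list, start codon sites 13.7% ± 0.182, stop codon sites 13.7% ± 0.144, 3' UTR sites 9.97% ± 0.354 and 5' UTR sites 6.10% ± 0.0967 (SD, n = 3 lists). The highest median folds were those of the 5' UTR, at 9.94 ± 0.631, and of the start codon, at 9.80 ± 0.406. Stop codon sites had a median fold of 7.80 ± 0.379, coding sites of 7.47 ± 0.410 and 3' UTR sites of 6.52 ± 0.125. In every list the medians of the 5' UTR and the start codon lay above those of the other 3 parts, and that of the 3' UTR lay lowest. The 5' UTR and the start codon did not differ beyond the spread between lists, with medians of 9.63 and 9.60 in replicate 1, 9.53 and 9.53 in replicate 2, and 10.67 and 10.27 in replicate 3.

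Lengths followed another order. Stop codon sites were the longest, with a median of 319 ± 7.37 bases, followed by 3' UTR sites at 262 ± 3.61, start codon sites at 218 ± 0.577, 5' UTR sites at 159 ± 2.89 and coding sites at 111 ± 0.577 (SD, n = 3 lists). Nearly all 3' UTR sites were at least as long as the sequenced fragments: 2.90% ± 0.0752 were under 200 bases. The lowest 5% of 3' UTR sites ended at 201 bases in every list, just above that length, and the cause was not tested. The share under 200 bases was 14.5% ± 0.0446 at the stop codon, 39.2% ± 0.376 at the start codon, 59.6% ± 1.57 in the 5' UTR and 80.5% ± 0.389 in the coding sequence. The part with the shortest sites was also the one whose ends most often coincided between lists.

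**Figure D3:**
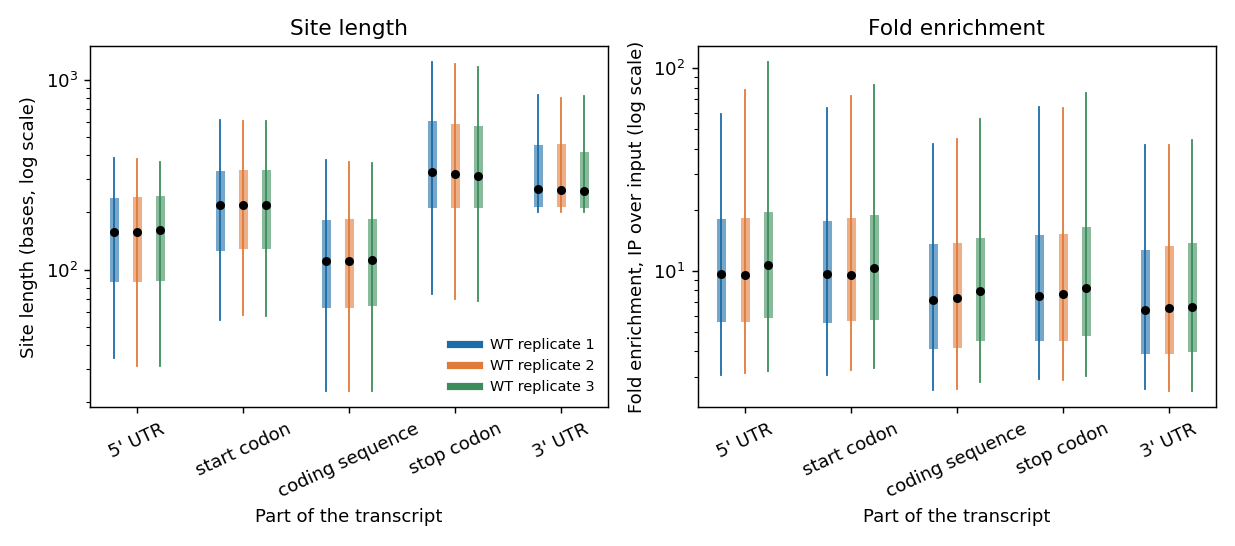
Site length in bases (left) and fold enrichment of IP over input (right), both on log scales, by transcript part and WT replicate. Points are medians, thick bars span the middle 50% of sites and thin lines the middle 90%; stop codon sites are the longest, and the 5' UTR and start codon have the highest median folds.

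Each part was led by different genes. In the 5' UTR, PI4KB, a phosphatidylinositol 4-kinase, had a site on chromosome 1 between 151299747 and 151299857 with folds of 2220, 2426 and 2391 in replicates 1, 2 and 3. ZNF592, a zinc finger gene, had 3080, 1987 and 2502, and CYRIB, a Rac1-binding protein gene, 3081, 1980 and 2959. At the start codon SUPV3L1, a mitochondrial RNA helicase, followed TTI2, TSC22D4 and RIN3, with 3039, 2064 and 2863.

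In the coding sequence PWWP2B followed MINK1, CREB5 and RILPL1 with folds of 2134, 2874 and 2864. At the stop codon VWA1, a matrix protein with a von Willebrand factor A domain, had 1689, 2243 and 2069, and MLLT1, a component of the super elongation complex, 1953, 1237 and 1791. In the 3' UTR CACNG8, an auxiliary subunit of AMPA receptors, had a single site with 1761, 2372 and 2278, and ATPAF1, an assembly factor of the mitochondrial ATP synthase, held 6 sites in each list and a best fold of 950, 1189 and 1257. For CYRIB, SUPV3L1 and MLLT1 replicate 2 gave the lowest fold, and for PI4KB, PWWP2B, VWA1 and CACNG8 it gave the highest. The list with the highest fold therefore changed from gene to gene.

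The share of sites that lay in regions of all 3 lists was set out by transcript part. Of the sites of a list, 80.1% ± 4.38 at the stop codon lay in regions of all 3 lists, 78.6% ± 4.05 in the 3' UTR, 78.5% ± 4.64 at the start codon, 75.3% ± 6.66 in the 5' UTR and 75.2% ± 6.51 in the coding sequence (SD, n = 3 lists). Replicate 3, the shortest list, was higher than the other lists in every part. Within each list the stop codon share exceeded the coding share, at 77.3% against 70.4% in replicate 1, 78.0% against 72.6% in replicate 2 and 85.2% against 82.6% in replicate 3. Longer sites meet an overlap of 1 base more easily, and stop codon sites were longer than coding sites. What site length adds to these differences was not tested. The stop codon made up 1.79 to 2.47 percentage points more of the sites in regions of all 3 lists than of the sites in 1 list, the start codon 0.293 to 2.20 points more, and the coding sequence between -5.72 and -1.08 points. For the 5' UTR (-1.26 to 0.0689 points) and the 3' UTR (-1.08 to 2.31 points) the sign differed between lists. The part was called differently by the lists in 248 of the shared regions (1.96%).

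**Figure D4:**
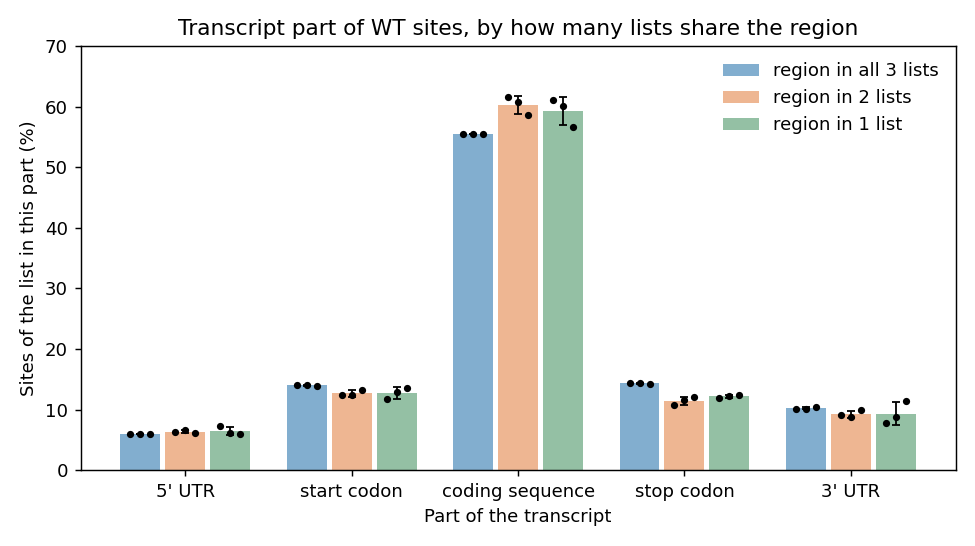
Share of sites in each transcript part, in percent, for sites in regions of all 3 lists, of 2 lists and of 1 list. Bars are means, error bars the SD and points the 3 WT lists; the coding share is lower among sites in regions of all 3 lists than in the other classes in every list.

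Counted over genes, shared coding regions were held by 3633 of the 6034 genes with a shared region of a single part, start codon regions by 1679, stop codon regions by 1653, 3' UTR regions by 1106 and 5' UTR regions by 705. Coding regions were the sole kind in 1907 genes, stop codon regions in 681 and start codon regions in 590. A start codon and a stop codon region occurred together in 345 genes. MICAL2, a flavin monooxygenase that oxidises actin, was the 1 gene with shared regions in all 5 parts, 9 regions in all.

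Genes with 1 shared region and genes with many had them in different parts. In the 2969 genes with 1 such region, 36.4% of the regions were coding, 22.3% lay at the stop codon, 19.3% at the start codon and 14.4% in the 3' UTR. In the 2652 genes with 2 to 4 regions the coding share was 57.4%, and in the 413 genes with 5 or more it was 74.6%, with 8.29% at the start codon, 6.73% at the stop codon and 6.58% in the 3' UTR. A transcript has 1 start and 1 stop codon, and the lengths of transcript parts were not used here, so these shares are not densities.

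The annotation columns of the lists assign KEGG pathways and Gene Ontology (GO) terms to genes. Terms with at least 40 genes with a site numbered 444, and the share of their genes found in all 3 lists ran from 63.8% to 95.8%, against 80.5% of all genes with a site. It lay above 80.5% in 287 terms. Terms share genes, so they are not independent, and no term was tested.

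The 5 KEGG terms of highest percentage are given first. Thyroid hormone signaling had 46 of 48 genes in all lists (95.8%), with MED13L (a subunit of the Mediator kinase module), RXRA (a retinoid X receptor) and SIN3A (a corepressor scaffold) holding the most shared regions. ErbB signaling had 48 of 53 (90.6%), led by the kinase genes MTOR, PTK2 and PAK4. Tight junction had 53 of 59 (89.8%), led by MYH9, the actin crosslinker gene ACTN1 and EPB41. mRNA surveillance followed with 46 of 52 (88.5%), where SMG5 of nonsense-mediated decay held 9, 10 and 9 sites, and Proteoglycans in cancer with 60 of 68 (88.2%). By regions these terms were less uniform. The share of regions found in all lists was 69.7% for Tight junction, 63.7% for Proteoglycans in cancer and 63.4% for ErbB signaling but 59.4% for Thyroid hormone signaling and 57.8% for mRNA surveillance, on either side of the 61.9% of all regions. The distance from all genes changed when 1 list was left out. A gene then had to have a site in both remaining lists, which all genes met more often. Their share, the gene-level Jaccard index, was 0.856 without replicate 1, 0.857 without replicate 2 and 0.884 without replicate 3. The effects of this rule and of the list left out cannot be told apart. For Thyroid hormone signaling the distance was 15.3 points with all lists, 12.3 without replicate 1, 10.1 without replicate 2 and 9.48 without replicate 3. For ErbB signaling it was 10.1 points with all lists and 5.79 without replicate 3. Tight junction went from 9.34 points to 4.26 without replicate 1. The mRNA surveillance term went from 7.97 points to 4.82 without replicate 1 and 4.47 without replicate 2, and Proteoglycans in cancer from 7.74 to 3.83 without replicate 2.

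The 5 KEGG terms of lowest percentage, among those with enough genes to be ranked, follow. TNF signaling had 32 of 46 genes in all lists (69.6%) and Ribosome 35 of 49 (71.4%), with 1.71 and 1.57 sites per gene. Osteoclast differentiation had 37 of 51 (72.5%), Herpes simplex infection 54 of 73 (74.0%) and Transcriptional misregulation in cancer 46 of 61 (75.4%). p53 signaling, a smaller term, had 22 of 31 (71.0%), with EI24, SESN2 and CASP9 holding the most shared regions. For Ribosome and TNF signaling the shares of regions in all lists were 60% and 59.0%, close to the 61.9% of all regions. For Herpes simplex infection (50.9%), Osteoclast differentiation (53.8%) and p53 signaling (56.3%) they were below it, and Transcriptional misregulation in cancer stood at 61.9%. These terms too changed with the setting, and with 1 list left out the rule was again a site in both remaining lists. Ribosome lay at -9.07 points from all genes with all lists and at -0.461 without replicate 1. TNF signaling lay at -10.9 points, at -4.77 without replicate 2, at -2.36 with a fold of at least 4 and at -1.23 with a score of at least 100. Osteoclast differentiation went from -7.95 to -3.35 points without replicate 1, Herpes simplex infection from -6.52 to -1.90 without replicate 2 and Transcriptional misregulation in cancer from -5.09 to -0.302 without replicate 3.

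**Figure D5:**
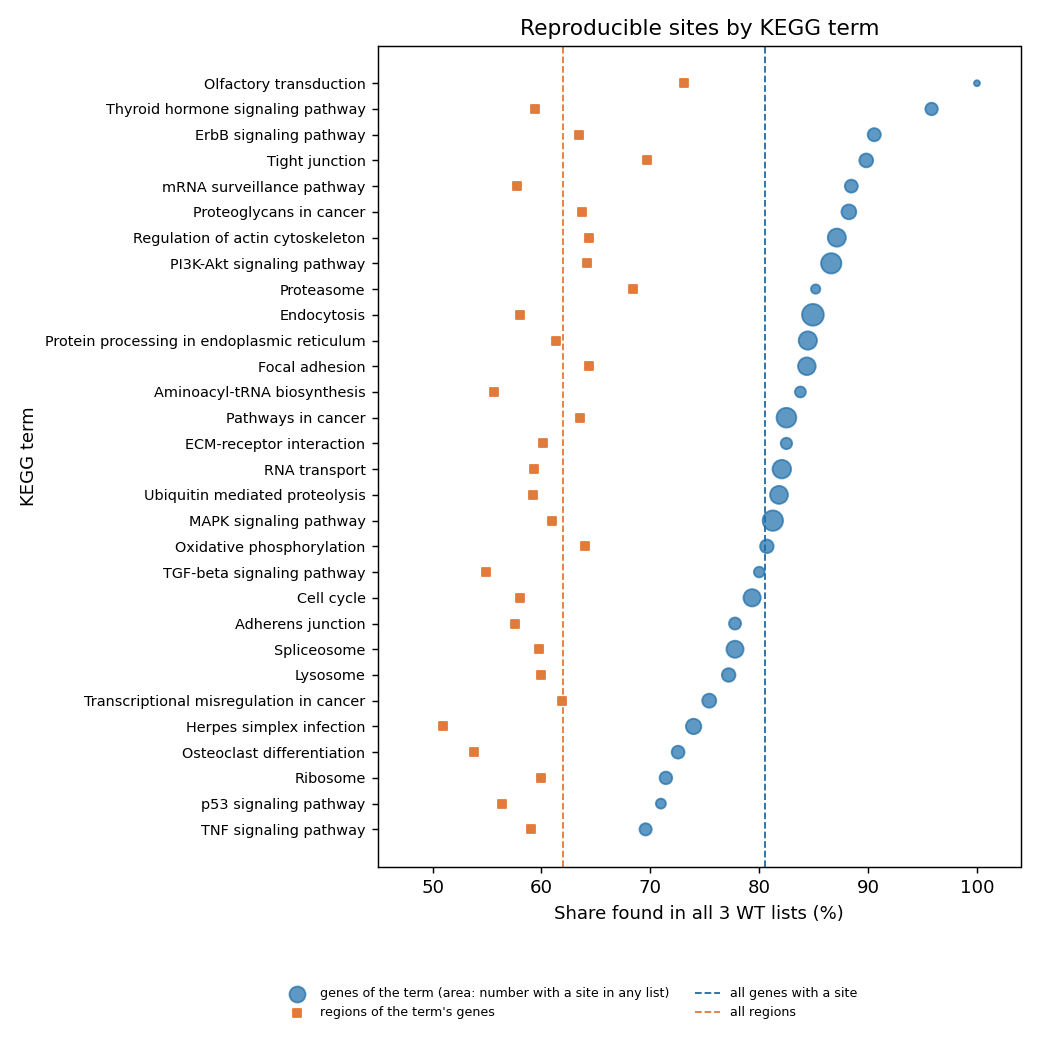
Share found in all 3 WT lists, in percent, of the genes (circles, area by number of genes) and of the regions (squares) of 30 KEGG terms. Dashed lines mark all genes (80.5%) and all regions (61.9%); the order of terms by genes is not their order by regions.

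The transcript parts of 4 KEGG terms are given next. Among all shared regions with the same part in every list, 56.1% were coding and 13.9% lay at the start codon. The stop codon held 13.9% of them, the 3' UTR 10.02% and the 5' UTR 6.04%. Over all genes the coding share also rose with the number of shared regions, from 36.4% with 1 to 74.6% with 5 or more. How far this accounts for differences between terms with unlike numbers of sites per gene was not tested. Of the shared regions of the KEGG term Ribosome, 29.8% were coding, 35.1% lay at the stop codon and 24.6% at the start codon. The genes with the most shared regions were MRPS18A and MRPS5, with 4 sites in each list, and MRPL12, with 3, all of the mitochondrial ribosome. Oxidative phosphorylation had a similar profile, with 37.0% coding, 26.0% at the start codon and 20.5% at the stop codon, 46 of 57 genes in all lists (80.7%) and 1.64 sites per gene. NDUFA10, a subunit of complex I, held 8, 8 and 6 sites. ECM-receptor interaction lay at the other extreme, with 81.2% coding and none in the 3' UTR, 33 of 40 genes in all lists (82.5%) and 2.83 sites per gene. Aminoacyl-tRNA biosynthesis had 77.8% coding, none in the 5' UTR and 31 of 37 genes in all lists (83.8%). LARS2, the synthetase for mitochondrial leucyl-tRNA, held 6, 6 and 5 sites. Of their regions, 64.0% (Oxidative phosphorylation), 60.1% (ECM-receptor interaction) and 55.7% (Aminoacyl-tRNA biosynthesis) were found in all lists.

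Further KEGG terms covered the handling of RNA and protein. RNA transport had 87 of 106 genes in all lists (82.1%), with the nucleoporin genes NUP210 (13, 11 and 12 sites) and NUP98 (8 in each list) among its leaders. Spliceosome had 70 of 90 (77.8%), where PRPF6 held 13, 14 and 11 sites and CHERP 9 in each list. Ubiquitin mediated proteolysis had 81 of 99 (81.8%), with 70% of its shared regions coding. Protein processing in the endoplasmic reticulum had 87 of 103 (84.5%), Proteasome 23 of 27 (85.2%) and Lysosome 44 of 57 (77.2%). The percentages of these 6 terms lay within 5 points of the 80.5% of all genes, and their shares of regions in all lists between 59.2% and 68.4%. Olfactory transduction, a term whose receptors belong to the nose, had 11 of 11 genes and 73.1% of its regions in all lists. Those with the most shared regions were the general signalling genes GRK2 (6, 7 and 7 sites), ARRB1 (3, 4 and 3) and CALM3 (2 in each).

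Among pathways of adhesion and fibrosis, Focal adhesion had 81 of 96 genes in all lists (84.4%) and 3.06 sites per gene. Regulation of actin cytoskeleton had 88 of 101 (87.1%) and Adherens junction 35 of 45 (77.8%). TGF-beta signaling had 28 of 35 (80.0%), with 54.9% of its regions in all lists. Its leaders were TFDP1, a partner of E2F factors (8, 6 and 5 sites), BMPR2, a BMP receptor (5, 5 and 6), and EP300, a histone acetyltransferase (4, 7 and 4).

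Among GO terms of high percentage, actin cytoskeleton organization had 53 of 57 genes in all lists (93.0%) and 71.9% of its regions, integrin binding 42 of 45 (93.3%) and 64% of regions, retrograde transport from endosome to Golgi 41 of 44 (93.2%) and 62.0%, and microtubule 159 of 175 (90.9%) and 65.2%. Nonsense-mediated decay had 37 of 40 genes (92.5%) and 57.3% of its regions. p53 binding had 41 of 44 genes (93.2%) and 64.6% of its regions, led by SMARCA4, the histone methyltransferase gene EHMT1 and HTT. The motor genes KIF1B (11, 12 and 11 sites) and DYNC1H1 (10, 9 and 8) were among the leaders of microtubule-based movement, which had 37 of 40 (92.5%) and 60.5% of its regions. Low terms were xenobiotic metabolic process with 30 of 47 (63.8%), G-protein coupled receptor activity with 28 of 42 (66.7%), defense response to virus with 29 of 43 (67.4%) and mitochondrial translation with 49 of 70 (70%). Xenobiotic metabolic process also had the lowest share of regions in all lists, 50.5%, and 1.71 sites per gene. The share of regions was 51.6% for G-protein coupled receptor activity, 53.9% for defense response to virus and 60% for mitochondrial translation. Leaving out 1 list again changed the rule to a site in both remaining lists. Without replicate 3 the distance from all genes went from 12.8 to 4.90 points for integrin binding, from 12.7 to 4.74 for retrograde transport, from 12.0 to 4.06 for microtubule-based movement, from 12.0 to 6.43 for nonsense-mediated decay and from 10.4 to 5.24 for microtubule. It went from 12.5 to 7.26 points without replicate 2 and 7.99 without replicate 3 for actin cytoskeleton organization, and from 12.7 to 7.61 without replicate 1 for p53 binding. Of the low terms, defense response to virus went from -13.1 to -3.07 points and G-protein coupled receptor activity from -13.8 to -5.94 without replicate 3. Xenobiotic metabolic process went from -16.7 to -8.98 points without replicate 2, and mitochondrial translation from -10.5 to -4.97 without replicate 1 and -5.36 without replicate 3.

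Lists of genes around the mark and the tissue were read beside the 80.5% of all genes with a site and the 30.8% of protein-coding genes. Both are shares found in all 3 lists. A site in any list was held by 7639 of the 20056 protein-coding genes. Of 30 genes of the ac4C machinery and of ribosomal or transfer RNA modification, 21 had a site and 20 had one in all lists (95.2% of those with a site). The transcript of NAT10 itself held 11, 11 and 8 sites. They fell into 13 regions, 8 of them in all lists, with the best in the coding sequence at folds of 8.44, 10.2 and 8.07. THUMPD1 held 1 stop codon site in each list. FBL, the methyltransferase fibrillarin of the small nucleolar RNA machinery, held 4, 5 and 5 sites, with folds of 16.8, 25.8 and 44.95 over the start codon on chromosome 19 between 40336931 and 40337049. NSUN5, a ribosomal RNA methyltransferase, reached 47.1, 49.0 and 48.7 over the stop codon on chromosome 7 between 72717301 and 72717737. QTRT1, a subunit of the queuosine enzyme, was the 1 member found in 2 lists. No site was listed for GAR1, NOP56 or NOP58, which are small nucleolar ribonucleoprotein components, nor for 6 other members.

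Of 24 genes that write, erase or read other marks in messenger RNA, 22 had a site and 18 had one in all lists. The 18 were 81.8% of those with a site, against 80.5% of all genes with a site. The N6-methyladenosine writer METTL3 held 2 sites in each list, with a best fold of 23.1, 18.8 and 21.4 over the start codon, and its partner METTL14 held 2 in each. CBLL1, a component of the same writer complex, had a start codon site on chromosome 7 between 107384342 and 107384601 with folds of 196, 204 and 197. The 3 values differed little. YBX1, a binder of 5-methylcytidine, had one on chromosome 1 between 43148066 and 43148402 with folds of 132, 162 and 123. The erasers ALKBH5 (4, 3 and 3 sites) and FTO (3, 3 and 1) were in all lists. Among readers of N6-methyladenosine, YTHDC1 held 2, 4 and 4 sites, YTHDF1 was found in 2 lists, YTHDC2 in 1, IGF2BP2 held 3 sites in each list, IGF2BP1 3, 4 and 1, IGF2BP3 1 site in replicate 2, and no site was listed for YTHDF2 or YTHDF3.

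Of 41 extracellular matrix genes, 35 had a site and 29 had one in all lists. The 29 were 82.9% of those with a site, close to the 80.5% of all genes with a site. They held a median of 3.33 sites, against 2 over all genes in all lists. HSPG2 led by number of sites, followed by PLOD1, a collagen lysyl hydroxylase (12, 12 and 11 sites). COL6A1, a chain of collagen VI, had a coding site on chromosome 21 between 47410893 and 47410955 with folds of 275, 332 and 300. LAMB2, a laminin chain of the kidney filter, had one on chromosome 3 between 49169924 and 49170063 with folds of 138, 251 and 206. TIMP1, an inhibitor of matrix proteases, had a stop codon site on chromosome X between 47445920 and 47446190 with folds of 84.6, 149 and 119. FN1, which encodes fibronectin, held 6 sites in each list, all 6 regions shared, and SERPINH1, a collagen chaperone, 3 in each. Among the fibril collagens, COL3A1 held 4, 7 and 6 sites, COL1A1 2, 1 and 1, COL5A2 2 in each list, and COL1A2 1 site in replicate 2. COL5A1 held 2 in each list, with a best fold of 38.8, 42.9 and 44.0. No site was listed for LAMB1, LAMC1, FBN1, LTBP1, LOX or PLOD2.

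Of 26 genes of TGF-beta and SMAD signalling, 16 had a site and 14 had one in all lists. The 14 were 87.5% of those with a site, against 80.5% of all genes with a site. The ligand gene TGFB1 held 4 sites in each list, all in shared regions, with folds of 25.4, 21.3 and 21.4 at its best site, over the start codon on chromosome 19 between 41858595 and 41859827. INHBA, the activin A subunit, had 1 start codon site with folds of 38.6, 50.4 and 48.6. Of the receptors, BMPR2 was in all lists, TGFBR1 and TGFBR2 were in 2, and none was listed for TGFBR3, ACVR1, ACVR1B, ACVR2A or BMPR1A. SMAD4, the common partner of the SMAD proteins, held 3 sites in each list, with a stop codon site on chromosome 18 between 48603008 and 48603337 at folds of 333, 419 and 376. The best shared sites of SMAD2, SMAD3, SMAD5 and SMAD6 had folds between 3.51 and 21.8. The ubiquitin ligase SMURF1 held 7, 8 and 4 sites, and no site was listed for the inhibitor SMAD7.

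Of 27 genes of epithelial junctions and keratins, 19 had a site and 17 had one in all lists. The 17 were 89.5% of those with a site, against 80.5% of all genes with a site. PLEC led with 11, 11 and 10 sites. JUP, the plakoglobin of junctions, had a stop codon site on chromosome 17 between 39910921 and 39912066 with folds of 98.0, 121 and 119, and ITGA3, an integrin of the basement membrane contact, a start codon site with 60.5, 78.4 and 87.5. CTNNA1, alpha-catenin, reached 60.9, 64.7 and 69.4 in the coding sequence. N-cadherin (CDH2) held 5, 5 and 4 sites, and none was listed for E-cadherin (CDH1), OCLN or CLDN4.

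Markers of the labelled cell type could be read through the presence of sites alone, which does not check the cell type. Of 21 markers of the renal tubule, 10 had a site and 8 had one in all lists (38.1% of the markers, against 30.8% of protein-coding genes). Among the 8 were CDH16, ANPEP, GGT1, LRP2, KRT8 and MME. GGT1, the brush border gamma-glutamyltransferase, held 5, 5 and 6 sites, and LRP2, the endocytic receptor megalin, 1 in each list. No site was listed for HNF4A, CUBN, AQP1, SLC34A1, SLC5A2, PAX2, CDH6, KRT18, EPCAM, HAVCR1 or DPP4. PAX8 had 1 site in replicate 3 and KRT19 had 1 in replicate 2. Other cells of kidney and blood were represented by 24 markers, of which 6 had a site and 5 had one in all lists (20.8% of the markers): PDGFRB, ACTA2, COL1A1 and COL3A1 of fibroblasts and mural cells, and LYZ, the lysozyme of myeloid cells. The intercalated cell marker ATP6V1B1 had 1 site in replicate 2, and no site was listed for the other 18, which mark podocytes, other nephron segments, endothelium, leukocytes and red cells. Since sites are not RNA levels, these counts show which transcripts carried called sites and not which cell types were present.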

How the data were processed

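Sites of WT HK-2 cells were taken from 3 deposited lists, 1 for each pair of IP and input. Per the submitters' processing notes, HISAT2 2.0.4, cutadapt 1.9.3 and hg38 were used, without a stated role. Per the file headers, sites carry MACS peak names. The deposited score is -10 times the log10 of the p-value (at least 50), the deposited fold enrichment is the authors' ratio of IP over input (at least 2), and the deposited false discovery rate is in percent. Numbers in the peak names run to between 37203 and 42649, and about 41.1% of them are listed. Emptied lines (2 or 3 a list) were not analysed here. Site length is end minus start, and printed starts are 1 higher than in the lists.

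Gene names were updated by GeneID, or otherwise by transcript, with RefSeq for GRCh38.p14; 113 to 127 sites a list had no match and kept the deposited name. Sites were merged into regions at an overlap of at least 1 base, without strand, with Python 3.11.15 and pandas 2.3.3. The merging was tested on simulated data. A gene was counted as found in all lists if it had a site in each, and values are means ± SD over the 3 lists. No test was run. Members, lists and terms were chosen with earlier results of these data known. Named were the 10 genes with the most sites in every list, the 10 with the highest fold in every list among sites of at least 50 bases, the 4 strongest of each part, the 3 genes with the most shared regions of named terms, and the genes of fixed lists; some of these are not reported here. Named terms had at least 40 genes and were the 5 largest, 5 highest and 5 lowest of a kind, plus fixed KEGG terms. The longest and the shortest sites, MICAL2, and the comparison of site ends, neighbouring regions and a length of 200 bases were chosen after the values were seen. The alternatives were a minimum fold of 4, score of 100 or length of 50 bases, lists of equal length, an overlap of 50% of the shorter site, the names as deposited, and leaving out each replicate. The 6 samples of the other genotype were not used here. No sequence is shown, since no genome of the files' positions was used here.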

Additional observations from a re-analysis of the deposited data

How the results depend on the processing

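Counts of sites, genes and regions, and the difference in start codon share between regions of all lists and of 1 list, kept their value within 1.5 times or within 1 SD of the lists under the settings run for each. Of 112 recomputed values other than terms, 85 moved by no more than that. With a fold of at least 4, sites per gene were 2.15, the median length 175 bases, the median fold 9.44, and the shares 6.61% (5' UTR), 14.8% (start codon), 55.3% (coding), 14.0% (stop codon) and 9.25% (3' UTR). With a score of at least 100, sites per gene were 2.15, the median fold 9.21, the Jaccard index 0.700, and the shares 6.34% (5' UTR), 14.0% (start codon), 56.0% (coding) and 13.9% (stop codon). With a length of at least 50 bases, sites per gene were 2.18, the median length 191 bases, and the shares 6.20% (5' UTR), 14.7% (start codon), 53.1% (coding), 14.9% (stop codon) and 11.1% (3' UTR). With each list held to its 15289 sites of highest score, sites per gene were 2.25, the median fold 8.48, and the shares 6.21% (5' UTR) and 13.8% (start codon). The coding sequence had the largest share in each of the 7 settings run for transcript parts. With 1 replicate left out, the Jaccard index lay between 0.714 and 0.757. Of 280 differences between a term's percentage of genes in all lists and that of all genes, over 40 terms and 7 settings, 276 kept their direction, but each of the 40 terms moved by over 1.5 times when 1 replicate was left out. The 40 terms had been picked as the highest and lowest with all 3 lists. Leaving out 1 replicate also changed the rule to a site in both remaining lists. These moves therefore do not measure how far a term depends on a replicate. The 4 that turned were PML body (-9.71 to 2.47 points with 1 replicate left out, above 0 without WT replicate 3), catalytic step 2 spliceosome (-5.10 to 2.21 points, above 0 without WT replicate 2), oxidoreductase activity (0.984 points with a score of at least 100) and single-stranded DNA binding (0.0181 points with a fold of at least 4). The cause was not tested. Depth is unknown, so how it limits the lists could not be measured. No paired analysis was possible because no groups were compared here and no result comes from a test.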
